A study of Homo sapiens with 50 samples.

Results

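Short hairpins that the deposited table assigns to more than 1 gene were followed through a pooled lifespan screen. A hairpin was taken when its gene field held more than 1 name. This gave 188 of 3443 hairpins, and the other 3255 had 1 name. The cells were IMR90, a human lung fibroblast line with a finite replicative lifespan, kept at 3% oxygen and infected at a multiplicity of infection of 0.3 with lentiviruses that each carry a hairpin. The library was made as 5 initial pools, combined in pairs into 10 paired pools on 10 plates. By this design each hairpin was on 4 of the 10 plates. Cells were taken at population doubling (PD) 40, when they were proliferating, at PD45, PD50 and PD55, and at PD60, when the cultures were senescent. All groups carried the hairpin library and were passaged alike, and PD40 was the baseline for every later time. The screen asks which hairpins let their carriers outgrow the other cells on serial passage.

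The table held 1 column of tag counts per population doubling, pooled over 10 plates, so there was no replicate, no spread between cultures and no test. Column totals lay between 8270745 tags at PD60 and 11505688 at PD55. Levels are given as CPM, the share of a column's tags that a hairpin holds on the usual per-million scale. A log2 fold change sets CPM plus 1 at a later time against CPM plus 1 at PD40. It was taken where either column had 10 or more tags, and it understates the loss of hairpins that started low. "Higher" and "lower" mean over 2-fold on this scale, relative to the column total. Ratios carry exact 95% Poisson intervals, which cover counting error only. Exact binomial intervals of a share treat hairpins as independent draws. Hairpins share names and are not replicates, so these intervals only describe a count and test nothing.

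A hairpin is processed into a short guide strand that lowers every transcript holding a close match to it. Families of near-identical gene copies are therefore hard to separate with this tool. The core histones are the clearest case in human cells. Many clustered copies encode almost the same H2A, H2B, H3 or H4 protein and are transcribed while DNA is replicated, to supply the nucleosomes of the new strands. Processed pseudogenes, read-through loci and fusion genes are other ways for a hairpin to reach several gene records.

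The 188 hairpins carried 92 different sets of names, built from 159 names. There were 21 sets with at least 3 hairpins, which held 100 hairpins, 17 sets with 2 hairpins and 54 with 1. By number of names, 101 hairpins had 2 names, 36 had 3, 32 had 4 or 5, and 19 had 6 or more. The longest list, on TRCN0000106961, held 12 H2B genes. Histone genes appeared in 55 sets and 113 hairpins, and the other 37 sets and 75 hairpins named none. Of the 159 names, 68 also had hairpins of their own and 91 were reached in this table by shared hairpins alone. Among the 61 histone names, 23 had no hairpin of their own, HIST1H2AI and HIST1H2AJ among them.

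Not every shared hairpin names separate genes in current terms. RefSeq (assembly GRCh38.p14) listed 56 of the names as current symbols, 64 as older names of 1 gene and 5 as older names of several genes. A further 19 provisional LOC names matched by gene ID, 15 of them to pseudogenes, and 15 names had no match. EVI1 and MDS1, named together by 3 hairpins, are both parts of MECOM, a zinc-finger transcription factor locus. The 3 hairpins had 118, 0 and 0 tags at PD60 against 3223, 931 and 1269 at PD40. MST075, listed beside RPA1 on 1 hairpin, is an older name of RPA1 itself, the large subunit of the complex that coats single-stranded DNA. That hairpin had 1 tag at PD60 against 276 at PD40.

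Shared histone hairpins followed the histone families. Groups went by histone symbols, and provisional records listed beside them were not counted. H2B was the only histone family on 23 hairpins, H3 on 20, H2A on 16, H4 on 15 and the short H2A variant H2A.B on 10. H2A and H3 genes stood together on 18 hairpins, H2B and H3 genes on 9, and a histone beside a non-histone gene on 2. HIST1H2AI was the most often named gene, with 19 hairpins, followed by HIST1H3F with 18 and HIST1H2AJ with 12. The mixed groups turned on few H3 names. HIST1H3F stood beside an H2A gene on 13 hairpins and HIST1H3D on 6, and HIST2H3PS2 stood beside an H2B gene on 9. In RefSeq HIST1H3D is the direct neighbour of HIST1H2AD, with 0 genes between them. HIST1H3F lies 169 annotated genes away from HIST1H2AI, whose direct neighbour is HIST1H3H.

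At PD60, 6 of 187 compared shared hairpins were higher than at PD40 (3.21%, exact 95% binomial interval 1.19 to 6.85) and 177 were lower (94.7%). Over all 3418 hairpins compared, the shares were 2.28% higher and 95.3% lower. The counts depended on scaling. TMM, which assumes that most hairpins keep their level, gave 44 higher (23.5%, against 18.8% of all hairpins) and a median log2 fold change of -1.79. Its scaling factor was 8.94 for the PD40 column but 0.0777 for the PD60 column. With 95.3% of all hairpins lower on column totals, its assumption was not met on that scale. A TMM value thus sets a hairpin against the bulk of hairpins and does not show that its share of tags was kept. Totals without the 50 most abundant hairpins gave 11 higher (5.88%, against 5.12%). On column totals the median log2 fold change was -5.84 over shared hairpins, -5.86 over single-gene hairpins and -5.86 over all hairpins. No tag was left at PD60 for 72 of the 188 (38.3%, exact interval 31.3 to 45.6), against 44.1% of all hairpins. Their median level at PD40 was 114.0 CPM, against 118.2 CPM for single-gene hairpins. In counts and medians the shared hairpins thus stood close to the library at large, on both sides of the comparison.

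Earlier times gave a similar picture for lower hairpins. The count of higher shared hairpins was largest at PD50, while over all hairpins it was largest at PD45, with 196. At PD45, 5 of 187 compared shared hairpins were higher (2.67%) and 110 lower (58.8%), beside 5.73% and 63.2% of all hairpins. At PD50, 12 of 188 were higher (6.38%) and 151 lower (80.3%), beside 4.94% and 81.9%. At PD55, 8 of 188 were higher (4.26%) and 169 lower (89.9%), beside 2.92% and 91.7%. Median log2 fold changes of shared and single-gene hairpins were -1.48 and -1.64 at PD45, -3.12 and -3.48 at PD50, and -4.94 and -4.93 at PD55.

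A single hairpin carried most of the shared tags at the end. Shared hairpins held 4.73%, 3.85%, 3.20%, 2.70% and 4.77% of tags at PD40, PD45, PD50, PD55 and PD60. TRCN0000155095, which names SMYD5 and TELO2, made up 88.2% of their tags at PD60. Without it, a value added after the data were seen, the shares were 4.11%, 2.99%, 2.74%, 2.28% and 0.564%. SMYD5 encodes a SET and MYND domain lysine methyltransferase, and TELO2 a co-chaperone subunit that stabilises the kinases related to PI3 kinase, among them ATM, ATR and mTOR.

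TRCN0000155095 stood at 6181, 8571, 4588 and 4194 CPM from PD40 to PD55 and at 42020 CPM at PD60. By abundance it ranked 11 in the library at PD40 and 5 at PD60. The ratio of PD60 to PD40 was 6.80 (95% counting interval 6.74 to 6.86). All of that gain lay in the last column, since its level at PD55 was below that at PD40. TELO2 had no hairpin of its own. The 4 hairpins that name SMYD5 alone were all lower at PD60, among them TRCN0000154724, with 198 tags at PD60 against 46295 at PD40.

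The largest transient gain of the shared hairpins was that of a hairpin naming CDY genes. These genes encode chromodomain proteins, lie on the Y chromosome and are known for expression in the testis. Whether the cells used here carry or express them was not tested. TRCN0000127914, which names CDY1, CDY1B, CDY2A and CDY2B, stood at 164.7, 746.6, 2801, 7924 and 991.4 CPM at the 5 times. It climbed at each step to PD55, at 48.1 times its PD40 level, and was lower again at PD60. The ratio of PD60 to PD40 was still 6.02 (5.69 to 6.37). At PD55 this hairpin held 29.3% of all shared tags. TRCN0000129080, with the same 4 names, had 1 tag at PD60 against 404 at PD40. Both hairpins naming CDY1 and CDY1B were lower too, with 2 and 0 tags left at PD60, so 1 of 4 shared CDY hairpins was above its baseline. The 9 hairpins naming CDY1 alone were all lower at PD60, with a median log2 fold change of -6.19 and at most 970 tags. Among them TRCN0000140978 went from 838.4 CPM at PD40 to 2539 at PD45, while TRCN0000142953 went from 120.4 to 51.81.

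H2A hairpins spanned the widest range among the histone groups. Of 34 hairpins naming H2A genes, alone or with H3 and no other family, 2 were higher and 30 lower at PD60. Over all hairpins compared, the shares were 2.28% higher and 95.3% lower. The median log2 fold change was -5.56 for the 16 naming H2A alone and -5.40 for the 18 naming H2A with H3. The hairpins of single H2A genes had -5.13 (52 hairpins, 2 higher). Under TMM scaling these medians were -1.96 for H2A alone and -0.0717 for H2A with H3, so the difference from PD40 was close to 0 in the mixed group.

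Both higher H2A hairpins named HIST1H3F with several H2A genes. TRCN0000106668, naming HIST1H2AB, HIST1H2AG, HIST1H2AI, HIST1H2AJ and HIST1H3F, stood at 296.3, 353.2, 502.6, 573.4 and 834.7 CPM. It was the only one of the 6 higher hairpins to climb at every step, to a ratio of 2.82 (2.69 to 2.95). TRCN0000106659, naming HIST1H2AH, HIST1H2AI, HIST1H2AJ and HIST1H3F, stood at 204.0, 118.4, 222.5 and 140.5 CPM up to PD55 and at 786.1 CPM at PD60, a ratio of 3.85 (3.66 to 4.06). TRCN0000106656, with HIST1H2AG in place of HIST1H2AH, was within 2-fold, at 194.8, 200.1, 260.7, 181.6 and 311.6 CPM; TMM scaling (log2 7.46) and totals without the 50 most abundant hairpins (3.07) both made it higher. In contrast TRCN0000106665, naming HIST1H2AI, HIST1H2AJ and HIST1H3F, stood at 314.3, 87.33, 7.547 and 0.782 CPM up to PD55 and had 0 tags at PD60. It was at least 866-fold lower, with a floor of 3 tags taken for the PD60 library. The 5 hairpins that name HIST1H3F alone were all lower, with log2 fold changes from -6.77 to -6.02. So were the 5 naming HIST1H2AB alone, with 0 tags at PD60, and the 3 naming HIST1H2AG alone, with at most 2 tags. HIST1H2AH, by contrast, had a hairpin of its own with a large gain, TRCN0000106761, at 373.3, 986.9, 3099, 9966 and 19940 CPM, beside 3 others that were lower.

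TRCN0000106750, naming HIST1H2AD and its neighbour HIST1H3D, was the most abundant shared histone hairpin at PD40, at 1995, 1899, 1630, 593.9 and 160.6 CPM. Its ratio of PD60 to PD40 was 0.0805 (0.0761 to 0.0851), a direction that TMM scaling turned. TRCN0000073282, which names H2AFX, the variant phosphorylated at DNA breaks, with H2AFJ, other H2A genes and HIST1H3F, stood at 1317, 811.8, 605.4, 99.26 and 9.552 CPM. Its log2 fold change of -6.97 became -0.26 under TMM scaling, within 2-fold, although its tags fell from 11364 at PD40 to 79 at PD60. Both were lower in each later column than in the one before. The lowest hairpin naming H2A genes alone was TRCN0000074592, for HIST2H2AA3, HIST2H2AA4 and HIST2H2AC, at 250.3, 121.8, 37.38, 0.956 and 0.121 CPM. Its last value was a single tag.

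The 5 hairpins naming HIST1H2AI and HIST1H2AL also differed among themselves. TRCN0000106731 stood at 453.1, 495.1, 2120, 4870 and 640.3 CPM, so it was 10.8-fold above PD40 at PD55 and 1.41-fold (1.36 to 1.47) at PD60. The PD60 call also turned to higher under TMM scaling (log2 7.32) and without the 50 most abundant hairpins (2.89). It held 18.0% of shared tags at PD55. The other 4 had at most 49 tags at PD60 and log2 fold changes from -7.43 to -3.97. Hairpins with identical names thus followed unlike courses.

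H4 hairpins kept the highest median among the groups, at -4.97 over 15 hairpins, which TMM scaling turned to 0.62. All 15 were lower at PD60, beside 95.3% of all hairpins. The median level of the H4 hairpins was 2.055 CPM at PD60 against 165.8 CPM at PD40. The most common set, with 8 hairpins, named HIST1H4A, HIST1H4F, HIST1H4J, HIST1H4K and HIST4H4. Its highest member, TRCN0000106936, stood at 118.8, 205.3, 517.8, 369.4 and 54.41 CPM, and its ratio of PD60 to PD40 was 0.458 (0.409 to 0.512), a direction that TMM scaling turned. TRCN0000106784, naming HIST2H4A and HIST2H4B, followed the same course, with 110.6, 389.2, 646.0, 304.5 and 8.464 CPM. The other 4 hairpins with these 2 names were below their PD40 level at every later time, and the lowest, TRCN0000106782, stood at 180.6, 116.3, 29.95, 3.998 and 0.121 CPM. TRCN0000106781 of the same set was the most abundant H4 hairpin at PD40, at 1275, 791.7, 578.2, 129.0 and 25.63 CPM, a decline that TMM scaling turned. At PD50, 3 of the 15 H4 hairpins were higher (exact interval 4.33 to 48.1%) and 10 lower, beside 4.94% and 81.9% of all hairpins.

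Of 53 compared hairpins for single H4 genes, 2 were higher (3.77%) and 51 lower, beside 2.28% and 95.3% of all hairpins. Of the 5 hairpins for HIST4H4 alone, TRCN0000074266 stood at 4572, 4375, 2618, 934.5 and 36280 CPM, and the other 4 were lower. Of the 5 for HIST1H4A alone, TRCN0000106698 stood at 317.3, 426.0, 288.8, 200.3 and 3570 CPM, and the other 4 were lower. All 5 for HIST1H4F alone, all 5 for HIST1H4H and all 5 for HIST1H4I were lower. The 10 shared hairpins that name HIST1H4A, HIST1H4F and HIST4H4 were all lower, with log2 fold changes from -7.01 to -1.11.

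All 23 hairpins naming H2B and no other family were lower at PD60, where 95.3% of all hairpins were. Their median log2 fold change was -5.91, and -1.29 under TMM scaling, and their summed share of tags was 0.00960% at PD60 against 0.411% at PD40. All 9 naming H2B with HIST2H3PS2 were lower as well, with a median of -6.77. The highest H2B hairpin was TRCN0000106714, naming HIST1H2BL, HIST1H2BK and H2BFS, at 496.6, 545.2, 112.3, 53.80 and 51.99 CPM, a ratio of 0.105 (0.0946 to 0.116) whose direction TMM scaling turned and whose call ended without the 50 most abundant hairpins (log2 -0.86). The lowest was TRCN0000106882, naming HIST1H2BF and HIST1H2BH, at 360.6, 156.8, 66.39, 7.561 and 0.484 CPM, 746-fold lower. The hairpin with 12 H2B names, TRCN0000106961, stood at 32.69, 37.12, 7.194 and 0.174 CPM up to PD55 and had 0 tags at PD60, at least 90.1-fold lower.

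Among H2B with H3 names, TRCN0000106873, naming HIST2H3PS2 and HIST2H2BF, dropped early, with 664.6 CPM at PD40 and 38.60, 11.91, 4.954 and 1.330 CPM afterwards. TRCN0000106963, which names 8 H2B genes and HIST2H3PS2, kept its level longer, at 501.2, 354.0, 242.6, 35.98 and 0.725 CPM. TRCN0000106872 had the smallest log2 change of the group and the lowest start, at 28.40, 1.025 and 0.118 CPM up to PD50 and with 0 tags at PD55 and PD60.

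H2BFS and HIST1H2BK shared 10 hairpins, all lower, with log2 fold changes from -6.94 to -3.23. The hairpin that names H2BFS alone behaved otherwise. TRCN0000106904 stood at 1724, 1463, 2796, 5132 and 68630 CPM, a ratio of 39.8. Its catalogue neighbours TRCN0000106900 to TRCN0000106903, which name both genes, started at 59.12 to 166.0 CPM and had 0 to 3 tags at PD60. The hairpin that names HIST1H2BK alone had 0 tags at PD60 against 1086 at PD40. The H2BFS hairpin thus lay far above every hairpin that also names HIST1H2BK.

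All 19 H3 hairpins compared were lower, beside 95.3% of all hairpins, with log2 fold changes between -7.84 and -3.59 and a median of -6.18. No tag was left at PD60 for 7 of the 20, so their log2 values follow from the PD40 level. The highest was TRCN0000106931, naming HIST1H3C and HIST1H3G, at 194.9, 235.4, 132.3, 95.00 and 15.23 CPM, a direction that TMM scaling turned. The lowest on the log2 scale of CPM plus 1 was TRCN0000062390, which names H3F3B, a gene of the replacement histone H3.3, and LOC440093, the histone gene H3-5. It stood at 1224, 777.0, 382.3, 42.94 and 4.353 CPM, 281-fold lower at PD60. TRCN0000106933, naming HIST1H3G and hCG_1749005, had 3 tags at PD60 against 1498 at PD40, a plain ratio of 0.00209 (0.00043 to 0.00612), against 0.00356 (0.00249 to 0.00493) for TRCN0000062390. These intervals overlap. The hairpins that name H3F3A and H3F3B with pseudogene copies such as LOC440926 had at most 5 tags at PD60. One of them, TRCN0000012026, was not compared at PD60, since it had 1 tag there and 7 at PD40. The 53 hairpins of single H3 genes had a median of -6.31, and all were lower.

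All 10 H2A.B hairpins were lower, beside 95.3% of all hairpins. H2AFB1, H2AFB2 and H2AFB3 are X-linked copies of a short H2A variant known from the testis, and none had a hairpin of its own. TRCN0000106825 stood at 928.1, 777.2, 491.4, 218.2 and 134.7 CPM, a ratio of 0.145 (0.136 to 0.155) that TMM scaling turned and that was within 2-fold without the 50 most abundant hairpins (log2 -0.39). TRCN0000106826, the lowest, stood at 208.1, 52.26, 47.88, 8.083 and 0.121 CPM, with 1 tag at PD60 and a ratio of 0.000581 (1.47e-05 to 0.00324). No tag was left at PD60 for 5 of the 10, beside 44.1% of all hairpins.

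The hairpin pairing a histone with unrelated genes was abundant and then lost. TRCN0000122476 names HIST1H2BG with WDR37, SLC26A2 and LOC records. It stood at 1332, 837.0, 98.23, 20.16 and 1.209 CPM, 1102-fold lower at PD60. The other such hairpin, which adds SLC17A3 to H2A and H3 names, had 4 tags at PD60 against 742 at PD40. HIST1H2BG and HIST1H2BC shared 5 hairpins without these partners, with log2 fold changes from -7.21 to -5.34.

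Outside the histones, 4 of 75 hairpins were higher at PD60 (5.33%, exact interval 1.47 to 13.1) and 69 lower (92.0%), beside 2.28% and 95.3% of all hairpins, with a median log2 fold change of -5.92. The largest non-histone set named HBG1 and HBG2, adjacent genes of the gamma chain of fetal haemoglobin, which is made in red cell precursors. TRCN0000059966 stood at 152.4, 226.1, 1092, 1080 and 184.5 CPM, within 2-fold of its start at PD60 after a 7.09-fold higher level at PD55. TMM scaling put its PD60 value at log2 7.04, and totals without the 50 most abundant hairpins at 2.66. TRCN0000059965 stood at 1336, 1917, 2171, 1700 and 429.9 CPM, a ratio of 0.322 (0.310 to 0.334) whose direction turned with TMM scaling and with PD55 as the end point. TRCN0000059967 peaked earliest, at 654.3, 2175, 2087, 220.3 and 20.31 CPM. The other 4 of the 7 hairpins had at most 5 tags at PD60. Counting a rise of any size, 3 of the 7 hairpins were above their PD40 level at PD45 and PD50. The like share over all hairpins was not taken, so this count is a description only. At PD60, 6 of the 7 were lower, beside 95.3% of all hairpins. TRCN0000084057, which adds the pseudogene HBBP1, had 383 tags at PD60 against 3075 at PD40, and TRCN0000084055, which adds the embryonic gene HBE1, had 0 against 608.

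Clustered gene families without histones showed the same mixture. The 5 hairpins against MBD3L2 to MBD3L5, which encode relatives of the NuRD subunit MBD3, included TRCN0000016155, at 168.7, 256.8, 635.9, 711.9 and 86.57 CPM. It was within 2-fold at PD60, and higher under TMM scaling (log2 5.81) and without the 50 most abundant hairpins (1.43). The other 4 had at most 2 tags at PD60. The drug-metabolising cytochromes CYP3A4 and CYP3A43 shared 4 hairpins with like outcomes, 0 to 8 tags at PD60 against 1400 to 1944 at PD40. CYP2B6 and its neighbouring pseudogene CYP2B7P1 shared 2 hairpins, each with 1 tag at PD60. Fork-head factors shared single hairpins. The one naming FOXO3, FOXO1 and ZNF286C had a log2 fold change of -5.70, with 108 tags at PD60 against 6298 at PD40. The one naming FOXA1 and FOXA2 had -5.13, and the one naming FOXC1, FOXC2 and FOXL1 had -3.67. These last values follow from the PD40 level, since both hairpins had 0 tags at PD60, against 293 and 101 at PD40.

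Neighbouring genes made up another kind of pair. COMMD3, a subunit of an endosomal sorting complex, lies near BMI1. In order of gene starts 1 annotated record falls between them, and whether it overlaps either gene was not examined. BMI1 is a PRC1 subunit that represses the CDKN2A locus, and the pair shared 3 hairpins. TRCN0000130226 stood at 26.89, 20.38, 17.45 and 9.995 CPM up to PD55 and at 66.62 CPM at PD60, a ratio of 2.48 (2.12 to 2.90). The gain rested on the last column, and on 551 tags against 232. The other 2 had 0 tags at PD60, and the 5 hairpins naming BMI1 alone were all lower, with at most 6 tags left.

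HDAC10, a polyamine deacetylase, and MAPK12, a stress-activated kinase, are direct neighbours, with 0 genes between them, and shared 4 hairpins. TRCN0000006145 stood at 110.7, 146.1, 505.0, 637.7 and 20.68 CPM, 5.76-fold above PD40 at PD55 and 5.35-fold below it at PD60. The other 3 had 0 or 1 tag at PD60, as had the 5 hairpins for HDAC10 alone. SMARCE1, a SWI/SNF subunit, shared 2 hairpins with its neighbour KRT222P, which had 18 and 0 tags at PD60 against 3075 and 328 at PD40.

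Other hairpins joined a gene with a pseudogene or an unmatched record. MAFG, a small Maf transcription factor, shared 4 with LOC644132. TRCN0000015189 stood at 112.9, 50.33, 78.07, 90.48 and 274.8 CPM, a ratio of 2.43 (2.26 to 2.63), while the other 3 had 0 to 2 tags at PD60. The 12 hairpins that pair a gene with its pseudogenes, among them those of HMGB3, SET, TOX4 and ATMIN, were all lower, beside 95.3% of all hairpins, with a median log2 fold change of -6.10. TRCN0000018519, naming the chromatin protein HMGB3, stood at 628.6, 394.8, 78.78, 8.170 and 0.484 CPM, 1300-fold lower. RAD54B, a recombination factor, shared 5 hairpins with LOC100128414, with 0 to 5 tags at PD60. BAZ2B, a bromodomain reader, shared 3 with CAPZA1, an actin capping subunit, and LOC728059, and 1 of these, TRCN0000116908, had 243 tags at PD60 against 1212 at PD40.

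HMGN2, a nucleosome-binding protein with many pseudogenes, was named on 4 hairpins with up to 10 names. All 4 were lower, with log2 fold changes from -7.36 to -5.17. One of them, TRCN0000018550, stood at 282.2, 372.1, 868.8, 267.1 and 6.892 CPM, so it too was above its start in the middle of the series.

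Partners with no shared symbol stem were named on few other hairpins. PAX3 and FOXO1, joined in the fusion gene of alveolar rhabdomyosarcoma, shared 3 hairpins, all lower. TRCN0000039580 had 346.0 CPM at PD40 and 22.89, 1.769, 0.782 and 0.121 CPM afterwards, with 1 tag at PD60. RET and NCOA4, fused in some thyroid cancers, shared 1 hairpin, with 0 tags at PD60 against 1205 at PD40. HMGA2, an architectural chromatin protein, and ELAC2, which trims tRNA ends, shared TRCN0000021966, the lowest of all shared hairpins on the log2 scale. It stood at 1452, 232.7, 22.05, 4.085 and 0.967 CPM, 1501-fold lower at PD60, with 8 tags left of 12524. The hairpin of the demethylase gene JMJD2B and the kinase gene STK24 had 10 tags at PD60 against 200 at PD40. That of the demethylase gene JARID1D and PRDX5 had 95 against 2089, after a peak of 551.7 CPM at PD50. The hairpin naming HMGB1, SET, PRDM2, ANKRD40 and LOC389168 had 0 tags at PD60 against 167 at PD40.

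In total 19 of 188 shared hairpins were higher at some time, beside 294 of all 3443 hairpins (8.54%), and 169 at none. Of the 12 higher at PD50, all 12 had a lower level at PD60 than at PD50, and of the 8 higher at PD55 all 8 had a lower level at PD60 than at PD55. Over all hairpins this held for 148 of 169 (87.6%) and for 79 of 100 (79.0%). Of the 6 higher at PD60, 5 were higher at no earlier time, and TRCN0000127914 of the CDY genes was the only one higher at both PD55 and PD60. Over all hairpins, 29 of the 78 higher at PD60 were higher at no earlier time. The highest level fell at PD40 for 153 hairpins (81.4%), PD45 for 14, PD50 for 9, PD55 for 6 (3.19%) and PD60 for 6 (3.19%). Over all hairpins, from PD40 to PD60, these shares were 80.4%, 12.0%, 3.98%, 1.74% and 1.95%.

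The SD of log2 fold changes within the 21 sets of at least 3 hairpins was 2.04, against 2.15 over all shared hairpins, these sets included. Both hold hairpins with 0 tags at PD60, whose log2 values are set by their PD40 level. Within 631 single genes with at least 3 hairpins it was 2.17. Ranges within sets ran up to 8.52 log2 units, for MAFG with LOC644132, and down to 0.89, for CYP3A4 with CYP3A43. By number of names, medians were -5.86 for 2 names, -5.74 for 3, -5.53 for 4 or 5 and -6.04 for 6 or more, with 3, 0, 3 and 0 higher hairpins.

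The comparison with single-gene hairpins was also made at like starting levels. Medians of shared minus single-gene hairpins differed by -0.24, -0.10, -0.05, 0.41 and 0.57 from the lowest to the highest quintile of PD40 tags. Shared hairpins in the highest quintile had a median log2 fold change of -5.72 (32 hairpins), against -6.29 for single-gene hairpins (657). The difference was thus below 0 in the 3 lower quintiles and above 0 in the 2 upper ones, and no test was available for it. From the lowest to the highest quintile, 76.7%, 63.0%, 41.5%, 7.69% and 0% of shared hairpins had 0 tags at PD60. For single-gene hairpins these shares were 84.8%, 70.25%, 46.0%, 19.9% and 1.52%. Medians in the 2 lowest quintiles therefore largely follow from the PD40 level, and their sign does not show a greater loss of shared hairpins.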

How the data were processed

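Genomic DNA was amplified around the hairpin, cut within it and sequenced, per the labels' protocols. The authors deposited 1 table of counts, per the file headers tags per hairpin, with a column for each population doubling. The submitters' processing notes list Bowtie 1.0.1. Neither the genome build nor the way 10 plates became a column was stated in the labels, so columns stand as the authors' pooled values. Hairpin sequences were not used here.

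Counts were scaled by column totals. The pseudocount was 1 CPM, the count minimum 10 and the fold threshold 2. Genes were grouped by symbol, and names were matched to the RefSeq table by symbol, older name or gene ID. Gene types were also taken from it, and of its positions gene order alone was used. TMM factors came from edgeR 4.0.16 in R 4.3.3. Other steps used Python 3.11.15, numpy 2.4.6, pandas 2.3.3 and scipy 1.17.1. The code for fold calls and intervals was run on simulated Poisson counts with known fold changes. Most simulated hairpins were given no change, unlike the data, so this run checks the code and not the calls made here. Levels were given for the 8 highest, 8 lowest and 8 most abundant hairpins, the extremes of each family, every higher hairpin and the longest name list. Hairpins outside this rule were chosen after their values were seen. The members, groups and rule were chosen with earlier results of these data known. Alternatives covered scaling, pseudocounts, count minimums and end points.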

Additional observations from a re-analysis of the deposited data

How the results depend on the processing

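No paired analysis was possible because plates were pooled before deposit into 1 column a time; leaving out a plate could not be tried either. The main values were a median log2 fold change of -5.84, 6 hairpins higher and 177 lower, and a median difference from single-gene hairpins of 0.02. TMM scaling gave a median of -1.79 and 44 higher, and scaling without the 50 most abundant hairpins gave -5.36 and 11. All TMM values here assume that most hairpins keep their level, while 95.3% of all hairpins were lower on column totals. A direction turned by TMM therefore does not show that a loss of tags was absent. Pseudocounts of 0.5 and 10 moved the median to -6.65 and -3.13. PD55, PD50 and PD45 as end points gave medians of -4.94, -3.12 and -1.48; PD50 gave 12 higher and a difference of 0.35, and PD45 gave 110 lower. Tags summed over shared hairpins gave a log2 fold change of 0.0104, since 1 hairpin held most of them; without the SMYD5 and TELO2 hairpin their share at PD60 was 0.564% in place of 4.77%. With TMM scaling the family medians were -1.96 for H2A, -0.0717 for H2A with H3, -2.19 for H2A.B, -1.29 for H2B, -2.06 for H2B with H3, -2.12 for H3, 0.62 for H4 and -2.20 for non-histone sets. Without the 50 most abundant hairpins H2B was at -5.34 and H4 at -3.47. With PD55 they were -3.27 for H2A with H3, -5.21 for H2B, -5.05 for H2B with H3, -5.24 for H3, -3.25 for H4 and -5.13 for non-histone sets.

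Of 30 hairpins named by rule, TMM scaling turned 7, PD55 as the end point 6 and scaling without the 50 most abundant hairpins 2. TMM scaling gave 1.20 for TRCN0000106781, 5.20 for TRCN0000059965, 3.21 for TRCN0000106750, 4.05 for TRCN0000106825, 3.57 for TRCN0000106714, 3.11 for TRCN0000106931 and 5.62 for TRCN0000106936. PD55 gave -0.32 for TRCN0000015189, -1.34 for TRCN0000130226, -0.53 for TRCN0000106659, -0.56 for TRCN0000155095, 0.35 for TRCN0000059965 and 1.63 for TRCN0000106936. Leaving out the 50 most abundant hairpins from the scaling gave 0.76 for TRCN0000059965 and 1.26 for TRCN0000106936. Beyond what an end point or scaling changes by construction, the cause was not tested. Counts below about 10 tags at PD60 limit each ratio to a wide interval.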
